A study of Mus musculus with 40 samples.

Results

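Light-reared (NR) and dark-reared (DR) visual cortex astrocytes with an intact glucocorticoid receptor (GR) were compared at postnatal day (P) 21. The comparison used the 3 NR and 4 DR libraries labelled P21 GR-Con, 7 of the 40 libraries in the study, and covered every expressed gene, 17106 of the 25239 genes in the count table. The study as a whole asked how visual experience and GR act on maturing astrocytes at P14, P21 and P28. NR mice lived on a reversed cycle of light and dark, and DR mice were kept in darkness until collection, which was done under red light for both. All 7 libraries came from mice with both GR alleles floxed, which had received at birth an AAV2/5 vector that drives inactive ΔCre and a nuclear-envelope EGFP from the astrocyte promoter GfaABC1D, which leaves the floxed gene in place. GR-KO mice carried active Cre in the same vector. Their libraries are used below for side-by-side values and for a test of the difference between genotypes. All 40 libraries entered 1 model, so the spread behind each p-value also came from the other groups. Each library was a pool of visual cortex from 1 male and 1 female, from which GFP-labelled nuclei were sorted, so no library measures a single animal and no cytoplasmic RNA was collected. The sort enriches cells in which the vector promoter is active, whichever type they are.

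Light after eye opening drives neuronal activity in the visual cortex, and astrocytes sense it through transmitter receptors coupled to calcium and cyclic AMP. In many cell types such signals first induce immediate early genes, which encode transcription factors of the FOS, EGR and NR4A families, and then a second wave of secreted and metabolic genes. Glucocorticoids act through GR, a nuclear receptor that induces genes such as Fkbp5, Zbtb16 and Tsc22d3. Notch, BMP and Sonic hedgehog signalling regulate the identity of glia through HES, ID and GLI transcription factors.

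The NR libraries were shallower than the DR libraries. They held 17240294, 18297118 and 24308989 counts in NR, against 41532457, 38508292, 38176971 and 39166822 in DR, and the P21 GR-KO libraries showed a like gap (19049254 to 28137389 counts in NR, 42056623 to 49221787 in DR). The 3 NR libraries detected 17322 to 17831 genes and the 4 DR libraries 18380 to 19795, the highest being DR replicate 2. At an equal depth of 17240294 counts the ranges were 17322 to 17639 and 17748 to 19121. Sequencing depth therefore goes with rearing at this age and the effects cannot be told apart by design. With the 7 libraries thinned to that one depth, 211 genes were called, 158 of them among the 214 reported below. The labelled cell type was checked with 20 astrocyte identity genes, whose levels summed to 24810, 23179 and 24506 CPM (counts scaled to a common effective library size) in NR and 20551, 22096, 20791 and 19690 CPM in DR. The 20 neuronal markers summed to 5175 to 5595 CPM in NR and 4759 to 5096 CPM in DR, so the sorted nuclei also carried neuronal RNA. Both sums were higher in every NR library than in any DR library, which with 3 against 4 libraries gives the smallest 2-sided p an exact permutation test can reach, 0.0571, and 0.2 after adjustment over 7 cell types. Markers of oligodendrocytes (1177 to 1421 CPM in NR, 1285 to 1610 CPM in DR), their precursors (296 to 298 and 277 to 316 CPM), microglia (82.9 to 93.8 and 89.9 to 96.4 CPM) and vascular cells (161 to 191 and 177 to 200 CPM) overlapped between the groups. So did markers of ependyma and choroid plexus (33.4 to 37.8 CPM in NR and 33.6 to 102 CPM in DR), with DR replicate 4 at 102 and DR replicate 2 at 52.5 CPM. In bulk RNA, fewer cells of a type and less RNA per cell cannot be told apart.

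**Figure D1:**
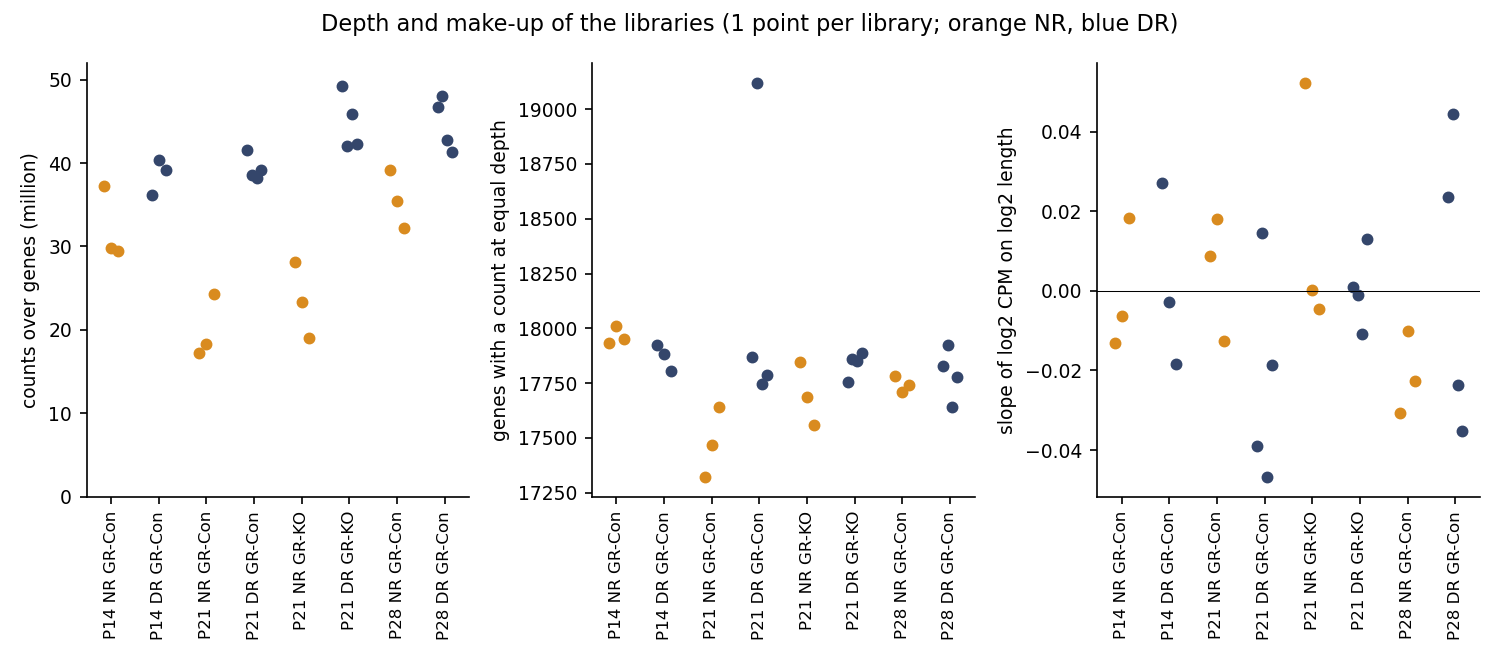
Total counts (left), genes with a count at equal depth (centre) and slope of log2 CPM on log2 gene length (right) in 8 groups, 1 point per library, NR (orange) left of DR (blue). The P21 NR groups hold the fewest counts of those drawn, 17.2 to 24.3 on the axis for GR-Con against 38.2 to 41.5 in DR, and P21 DR GR-Con replicate 2 stands apart with 19121 genes at equal depth.

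In all, 214 genes were called between NR and DR by edgeR's quasi-likelihood test at a Benjamini-Hochberg adjusted p below 0.05, which is 1.25% of those tested. The number was nearly the same in each direction, with 103 higher in NR (0.602%) and 111 lower (0.649%). The higher genes were long and well expressed, with a median length of 49.1 kb and a median level of 58.7 CPM, and the lower genes were shorter and weaker, with medians of 13 kb and 9.74 CPM. All tested genes had medians of 24.1 kb and 14.1 CPM. Library slopes of log2 CPM on log2 gene length were 0.0086, 0.018 and -0.013 in NR, and -0.039, 0.015, -0.047 and -0.019 in DR. Their part in the length difference between the called sets was not tested. Most differences were below 1 on the log2 scale: the median size was 0.48 among the higher and 0.69 among the lower genes, and 14 and 28 genes exceeded 1. The libraries of the 2 groups did not overlap for 102 of the 103 higher and 109 of the 111 lower genes, where 18.7% of all genes tested showed no overlap (9.45% with NR above and 9.24% with NR below). The split rested on single libraries, with 20 higher and 43 lower without DR replicate 3, 26 and 50 without NR replicate 3, 26 and 46 without DR replicate 1, and 55 and 36 without NR replicate 1. So did the number of calls, which was 91 without NR replicate 1, 54 without NR replicate 2, 76 without NR replicate 3, 72 without DR replicate 1, 163 without DR replicate 2, 63 without DR replicate 3 and 193 without DR replicate 4. In 19 alternative analyses every one of the 214 genes kept its direction wherever it was fitted, and 16 of them, among them Camk1d, Lars2, Bdnf, Pde10a, Nsdhl, Stk32a, Ubb-ps, Id3, Hes5, Srebf1, Matn2 and Pygl, were called in all 19. These analyses refit the libraries that gave the calls, so they are no independent test of direction. A difference in preparation between the NR and DR libraries was not tested by any of them. As a base for the lists below, 2720 of the 17106 genes tested had an unadjusted p below 0.05. Of these, 1273 were higher and 1447 lower in NR, and 46.7% of all genes tested had a positive log2 fold change.

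**Figure D2:**
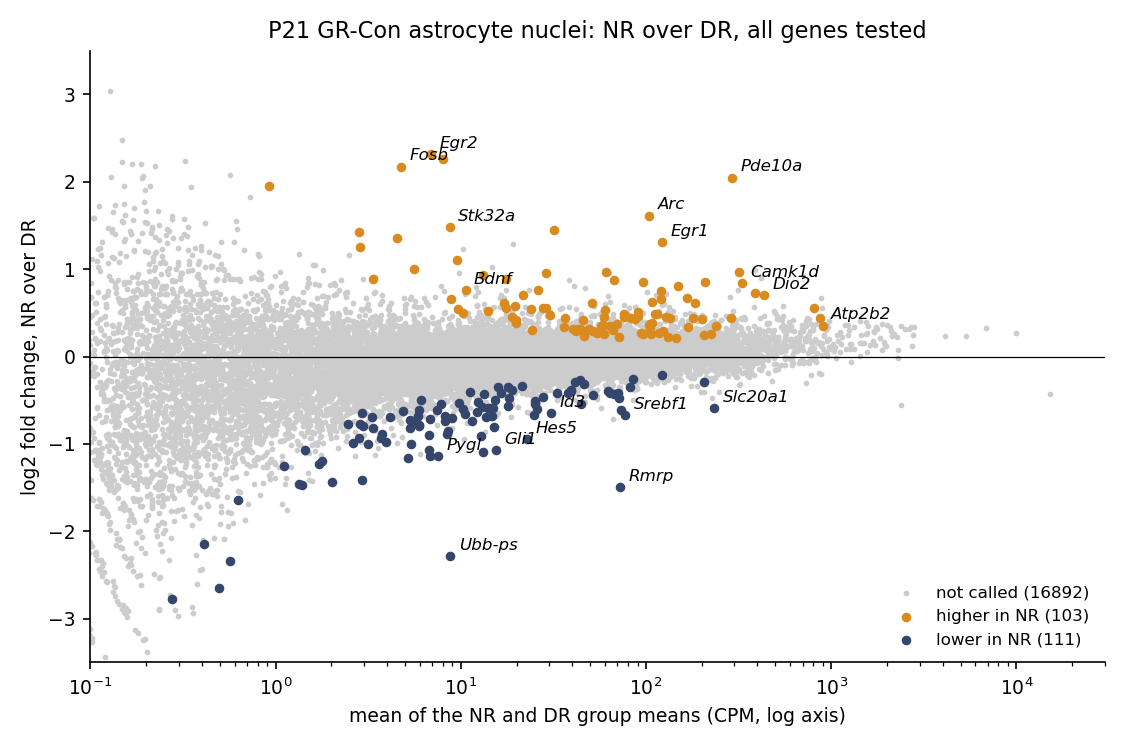
Log2 fold change of NR over DR against mean level in CPM (log axis) for the genes tested at P21 in GR-Con astrocytes; called genes are orange (103 higher in NR) or blue (111 lower), some are named, and 217 genes lie outside the plotted range. Egr2, Fosb and Pde10a are the highest of the named points and Ubb-ps the lowest.

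Some immediate early genes were called higher in NR. Of 22 immediate early genes measured, 5 were called higher and 0 lower, with a median log2 fold change of 0.70 over the list against -0.02 over all genes tested, and 18 of the 22 had a positive value. Egr2, a zinc finger transcription factor (chr10:67534469-67542188, mm10), measured 11.3, 7.52 and 15.9 CPM in NR and 2.66, 2.3, 1.40 and 2.93 CPM in DR. Every NR library lay above every DR library, a log2 fold change of 2.32 ± 0.45 (SE; adjusted p = 0.0068) and the largest of the list. Fosb, a partner of JUN proteins in the AP-1 complex, measured 4.67, 6.32 and 12.4 CPM in NR and 1.92, 1.38, 1.15 and 2.51 CPM in DR (2.17 ± 0.48, adjusted p = 0.020). Egr1 measured 151, 145 and 226 CPM in NR and 77.3, 68.4, 62.9 and 71.7 CPM in DR (1.31 ± 0.30, adjusted p = 0.021). Here too the groups did not overlap, and NR replicate 3 was the highest library for each of these 3 genes. Nr4a1, an orphan nuclear receptor, measured 46.8, 26.9 and 66.7 CPM in NR and 19.3, 14.3, 15.3 and 19.8 CPM in DR (1.45 ± 0.33, adjusted p = 0.024).

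The fifth call was Arc, a cytoskeletal protein of activated synapses, at 116, 117 and 239 CPM in NR and 57.9, 54.4, 28.6 and 64.7 CPM in DR (1.61 ± 0.41, adjusted p = 0.040). Arc is best known from neurons, and the neuronal marker sum was 1.07 times as high in NR as in DR. The neuronal and oligodendrocyte marker levels of each library were therefore added to the model as covariates. All 5 calls held there (Jund was then also called lower), with log2 fold changes of 2.18 for Egr2, 2.12 for Fosb, 1.24 for Egr1, 1.30 for Nr4a1 and 1.64 for Arc. These covariates adjust for marker content only and cannot tell from which cells an RNA came, so a neuronal source was not tested. The calls leaned on single libraries to different degrees. Egr2 lost its call only without NR replicate 3 (adjusted p = 0.053 and log2 fold change 2.01), Egr1 among the analyses without 1 library when NR replicate 3 or DR replicate 3 was left out (largest adjusted p = 0.10 over the alternatives), and Fosb without NR replicate 3, DR replicate 1 or DR replicate 3 (0.13). NR replicate 1 and DR replicate 2 lay at the ends of the first principal component of the 7 libraries, and NR replicates 1 and 2 at the ends of the second. Without NR replicate 1 and DR replicate 2, only Egr2 of the list was called, and the list's median was 0.72. Nr4a1 kept its call in 2 of the 7 analyses that left out 1 library and Arc in 1 of 7, while the log2 fold changes without any 1 library stayed between 1.08 (Egr1) and 2.55 (Egr2). Members that missed the threshold included Fosl2, an AP-1 subunit the study names (16.5, 27.3 and 37.1 CPM in NR, 11.3, 11.3, 9.09 and 12.9 CPM in DR, adjusted p = 0.059), Egr4 (log2 fold change 0.96, adjusted p = 0.14), Egr3 (0.78, adjusted p = 0.15), Fos (1.03, adjusted p = 0.22) and Npas4 (0.57, adjusted p = 0.50).

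Activity-dependent transcription acts in part through the cyclic AMP response element, bound by CREB, and the bases upstream of the transcription start were searched for it in RefSeq promoter sequences (GRCm38.p6). The full element TGACGTCA stood in the 250 bases upstream of 3 of 81 higher genes with a sequence (Dio2, Golph3 and Pcsk1), of 1 of 78 lower genes (Has1), of 2.49% of the 13435 tested genes with a sequence and of 1.55% of all 32851 promoters. The core TGACG, which the full element contains, was found on either strand for 23 of the 81 (28.4%) and 15 of the 78 (19.2%), against 24.3% of the tested genes and 17.8% of all promoters. Stretches of 80 bases from 4 of the higher genes are shown because they carry these letters near the start of genes that differed here; capitals mark TGACGTCA for Pcsk1 and Dio2, and TGACG or its reverse complement CGTCA for Fosb and Nr4a1. A further core in the Pcsk1 stretch is left in lower case. They lie at chr7:19310064-19310143 (minus strand) for Fosb, chr15:101266766-101266845 (plus strand) for Nr4a1, chr13:75089743-75089822 (plus strand) for Pcsk1 and chr12:90739090-90739169 (minus strand) for Dio2. The promoter sequences use transcript starts that can differ from the ends of the gene intervals. The Nr4a1 and Pcsk1 stretches lie inside the intervals of these genes, and the Fosb stretch partly so.
Fosb: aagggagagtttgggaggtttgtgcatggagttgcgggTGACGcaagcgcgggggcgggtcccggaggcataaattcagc
Nr4a1: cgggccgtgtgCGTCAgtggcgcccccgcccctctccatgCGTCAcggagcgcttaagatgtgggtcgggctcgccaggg
Pcsk1: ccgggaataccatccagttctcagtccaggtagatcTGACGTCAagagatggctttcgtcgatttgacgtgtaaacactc
Dio2: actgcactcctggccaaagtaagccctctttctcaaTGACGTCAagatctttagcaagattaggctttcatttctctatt

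Secreted and synaptic genes of the later activity response followed the same direction. All 16 measured members had a positive log2 fold change, with a median of 0.49, and 4 were called higher and 0 lower. Bdnf, a neurotrophin (chr2:109674700-109727043), measured 12, 14.3 and 13.7 CPM in NR and 7.29, 7.08, 8.34 and 8.87 CPM in DR (0.76 ± 0.14, adjusted p = 0.0063). Its 3 NR libraries were close to each other and above all 4 DR libraries, and the call held without any single library. Inhba, the activin A subunit, measured 3.59, 9.32 and 6.58 CPM in NR and 2.57, 2.25, 3.01 and 2.34 CPM in DR (1.36 ± 0.25, adjusted p = 0.0054). Other annotated genes cover 92.8% of the Inhba body, and no source used here states whether counting used the strand, so their reads may be included. The call was lost without NR replicate 2 (adjusted p = 0.092). Pcsk1, a protease that processes prohormones, measured 18.8, 22.6 and 26.8 CPM in NR and 13.5, 12.7, 11.4 and 11.6 CPM in DR (0.89 ± 0.21, adjusted p = 0.024). Nptx2, a pentraxin that clusters AMPA receptors, measured 10.4, 19.8 and 21.6 CPM in NR and 9.03, 8.71, 8.36 and 10.1 CPM in DR (0.93 ± 0.24, adjusted p = 0.048). Its NR replicate 1 was barely above the highest DR library, and the call held in 1 of 7 analyses without a library.

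Ptgs2, which encodes the inducible cyclooxygenase and was named after its values were seen, measured 3.23, 4.47 and 4.61 CPM in NR and 1.01, 1.89, 1.80 and 1.43 CPM in DR (1.43 ± 0.36, adjusted p = 0.043), and lost its call without any one library. The neuronal and oligodendrocyte marker levels as covariates left all 4 calls of the list in place, with log2 fold changes of 0.69 for Bdnf, 1.42 for Inhba, 0.70 for Pcsk1 and 1.01 for Nptx2. Here too the cells of origin were not tested. Without NR replicate 1 and DR replicate 2, 3 of the list (Bdnf, Inhba and Nptx2) were called. Values for members below the threshold were 0.50 for the clock gene Per1 (adjusted p = 0.097), 0.48 for the scaffold gene Homer1 (0.10), 0.80 for the enkephalin gene Penk (0.12) and 0.58 for Scg2 (0.17).

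**Figure D3:**
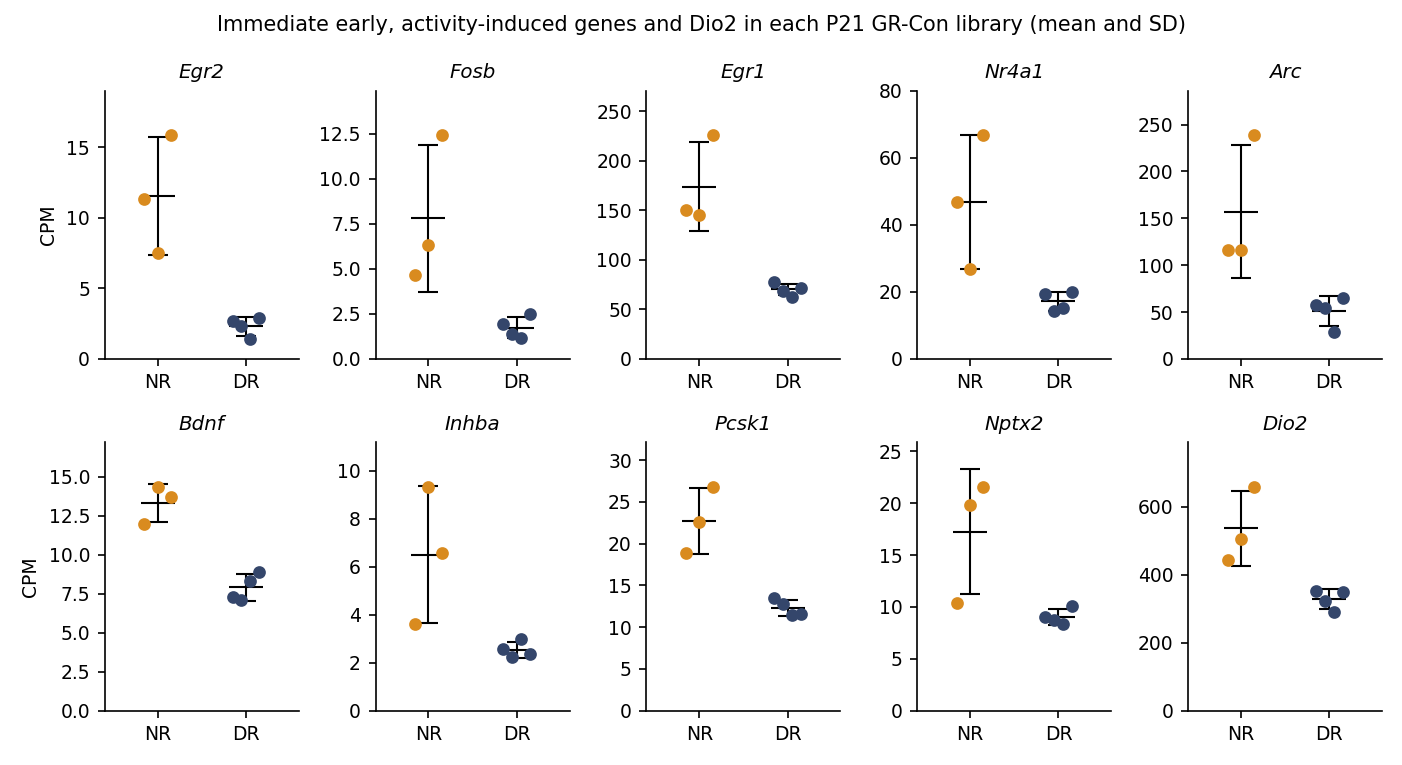
CPM of immediate early and activity-induced genes and of Dio2 in each P21 GR-Con library (orange NR, left; blue DR), with the group mean and SD. All NR points lie above all DR points for the called genes, for example 7.52 to 15.9 CPM in NR and 1.40 to 2.93 CPM in DR for Egr2.

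In the thyroid axis 1 gene was called higher. Dio2, the deiodinase with which astrocytes convert thyroxine into active triiodothyronine for neurons (chr12:90724552-90739038), measured 445, 507 and 659 CPM in NR and 354, 322, 291 and 350 CPM in DR. The groups did not overlap, with a log2 fold change of 0.71 ± 0.13 (adjusted p = 0.0063; 0.070 without NR replicate 3, the highest library). Of 11 thyroid hormone genes measured it was the only call, with a median of 0.27. The transporter gene Slco1c1 had a log2 fold change of 0.50 (adjusted p = 0.17), the thyroid hormone-responsive factor Klf9 0.28 (0.25) and Crym, which binds the hormone in the cytosol, -0.59 (0.12).

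Nr3c1, the gene of GR, did not pass the test: it measured 229, 225 and 216 CPM in NR and 240.2, 237, 230.1 and 209 CPM in DR (-0.04 ± 0.09, adjusted p = 0.87). Among 21 glucocorticoid-induced genes, 1 was called higher and 0 lower, 18 had a positive value, and the median was 0.29. At an unadjusted p below 0.05 there were 10, all higher in NR, where 1273 of all 17106 genes tested were higher at that p. DESeq2 called 3 higher (Cdkn1a, Dusp1 and Zbtb16), the marker covariates gave 4 (Cdkn1a, Arrdc2, Mertk and Zbtb16), and without NR replicate 1 and DR replicate 2 there was 1, Zbtb16. The call was Cdkn1a, a cell cycle inhibitor that is also a p53 target, at 10.7, 10.7 and 17.6 CPM in NR and 7.88, 5.34, 4.26 and 6.85 CPM in DR (1.10 ± 0.26, adjusted p = 0.024; lost without NR replicate 3, DR replicate 2 or DR replicate 3). Zbtb16, a transcription factor strongly induced by glucocorticoids, measured 366, 558 and 634 CPM in NR and 193, 372, 148 and 328 CPM in DR (1.00 ± 0.27, adjusted p = 0.051), and was called in 11 of the 19 alternative analyses. Fkbp5, a chaperone that feeds back on the receptor, measured 56.0, 118 and 74.9 CPM in NR and 29.2, 66.5, 24.0 and 50.7 CPM in DR (0.96 ± 0.33, adjusted p = 0.14). In both genes the groups overlapped, with DR replicates 2 and 4 well above DR replicates 1 and 3. Tsc22d3, a mediator of anti-inflammatory glucocorticoid effects, had a value of 0.48 (0.16), Hif3a 0.32, Cables1 0.28, Mt2 0.30 and Mt1 -0.06.

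Genes called higher included 3 cyclic nucleotide phosphodiesterases and some kinases regulated by calmodulin. Pde10a, a phosphodiesterase that degrades cyclic AMP and cyclic GMP (chr17:8525187-8986648), measured 249, 531 and 629 CPM in NR and 89.6, 156, 67.9 and 141 CPM in DR. The lowest NR library was above the highest DR library, a log2 fold change of 2.05 ± 0.39 (adjusted p = 0.0063). Pde7b, specific for cyclic AMP, measured 356, 385 and 514 CPM in NR and 172, 259.8, 174 and 248 CPM in DR (0.97 ± 0.21, adjusted p = 0.016). Pde3a, which cyclic GMP inhibits, measured 32.0, 38.4 and 43.5 CPM in NR and 18.2, 21.3, 18.2 and 20.8 CPM in DR (0.96 ± 0.20, adjusted p = 0.011). These 3 were the only calls among 22 cyclic nucleotide phosphodiesterase genes tested, a family looked at after the calls were seen, whose median was 0.09. Camk1d, a calcium/calmodulin-dependent kinase (chr2:5293457-5714860), measured 431, 399 and 437 CPM in NR and 226, 241, 220 and 254 CPM in DR (0.84 ± 0.12, adjusted p = 0.00051), with little spread inside either group. The Camk1d value was 0.78 in P21 GR-KO, and -0.05 at P28 and 0.06 at P14 in GR-Con. Dapk2, a calmodulin-regulated kinase named after its values were seen, measured 5.50, 7.79 and 26.5 CPM in NR and 2.04, 4.04, 2.05 and 3.15 CPM in DR (2.26 ± 0.54, adjusted p = 0.028). NR replicate 3 was far above the other NR libraries, and without it the log2 fold change was 1.24 (adjusted p = 0.31).

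Stk32a, a serine/threonine kinase, measured 12.4, 14.1 and 11.8 CPM in NR and 3.87, 5.16, 4.43 and 4.88 CPM in DR (1.48 ± 0.29, adjusted p = 0.0086), 2.79 times as high in NR. The receptor gene Il31ra measured 84.0, 76.9 and 81.2 CPM in NR and 38.6, 40.4, 38.4 and 48.1 CPM in DR (0.96 ± 0.19, adjusted p = 0.0087). The Il31ra value was 1.24 in P21 GR-KO, and 0.26 at P28 and 0.06 at P14 in GR-Con. Among 20 calcium signalling genes only Atp2b2, a calcium pump of the plasma membrane, was called: 969, 1018 and 1054 CPM in NR against 830, 762, 757 and 823 CPM in DR (0.35 ± 0.09, adjusted p = 0.043). Tph2, tryptophan hydroxylase of serotonin synthesis, measured 5.86, 9.32 and 7.30 CPM in NR and 3.60, 4.06, 3.13 and 4.19 CPM in DR (1.00 ± 0.19, adjusted p = 0.0068). Maob, which degrades monoamines and leads to GABA synthesis in astrocytes, measured 104, 109 and 100.3 CPM in NR and 66.2, 86.4, 61.5 and 88.5 CPM in DR (0.46 ± 0.12, adjusted p = 0.048), the only call among 15 genes of glutamate and GABA handling.

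Nuclear genes of mitochondrial proteins were called in both directions. Lars2, the mitochondrial leucyl-tRNA synthetase (chr9:123366927-123462675), measured 157, 143 and 151 CPM in NR and 91.1, 81.6, 83.0 and 101 CPM in DR (0.75 ± 0.12, adjusted p = 0.00082). The Lars2 value was 0.77 in P21 GR-KO, and 0.07 at P28 and -0.09 at P14 in GR-Con. The mitochondrial synthetases Mars2 (4.70 CPM in NR and 7.24 CPM in DR on average, -0.61 ± 0.15, adjusted p = 0.032) and Pars2 (3.16 and 5.10 CPM, -0.69 ± 0.18, adjusted p = 0.048) were lower. The complex I genes called were higher by small amounts, Ndufc2 by 0.47, Ndufa12 by 0.32 and Ndufs4 by 0.27 on the log2 scale, 3 of 46 tested with a median of 0.02. Atpsckmt, a methyltransferase acting on ATP synthase, measured 19.6, 21.9 and 20.4 CPM in NR and 13.3, 14, 13 and 13.8 CPM in DR (0.61 ± 0.10, adjusted p = 0.0028). The list of 19 respiratory chain genes held 0 calls by edgeR or DESeq2 (0 at an unadjusted p below 0.05), with a median of -0.01. The synthetases and the complex I family were looked at after the calls were seen.

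In lipid metabolism the sterol regulator Srebf1 and an enzyme of cholesterol synthesis went opposite ways. Srebf1 encodes SREBP1, which drives fatty acid and sterol genes (chr11:60199084-60224186), and measured 55.8, 56.4 and 67.1 CPM in NR and 101, 90.8, 97.5 and 90.9 CPM in DR (-0.67 ± 0.10, adjusted p = 0.00082). Every NR library was below every DR library, and the call held without any single library. Nsdhl, an enzyme late in cholesterol synthesis, measured 86.7, 81.0 and 92.5 CPM in NR and 42.6, 51.2, 40.0 and 55.8 CPM in DR (0.87 ± 0.17, adjusted p = 0.0063). Of 21 cholesterol genes listed, 0 were called higher and 1, Srebf1, lower; Nsdhl was not on the list. The list's median was 0.28 with 17 positive values, among them Msmo1 (0.50, adjusted p = 0.082) and Sqle (0.47, adjusted p = 0.10). Pygl, the liver form of glycogen phosphorylase, was lower at 4.37, 5.78 and 4.03 CPM in NR and 11.0, 10.1, 11.7 and 8.80 CPM in DR (-1.14 ± 0.18, adjusted p = 0.00082). The glucose transporter Slc2a4 was lower at 0.897, 0.654 and 0.671 CPM in NR and 1.81, 2.10, 2.20 and 2.07 CPM in DR (-1.47 ± 0.36, adjusted p = 0.031). None of the 22 listed glucose and glycogen genes was called by edgeR or DESeq2 (2 at an unadjusted p below 0.05), and the median was 0.05.

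All 5 astrocyte maturation genes named by the study had a positive value, with a median of 0.42, and the NR libraries lay above the DR libraries for each but Etnppl. Of the 5, 2 were called higher: Ezr, a linker of membrane and actin in fine astrocyte processes (213, 229 and 251 CPM in NR, 168, 180.3, 145 and 189.9 CPM in DR, 0.43 ± 0.10, adjusted p = 0.020), and Aldh1a1, an enzyme of retinoic acid synthesis (134, 159 and 149 CPM in NR, 92.7, 106, 78.4 and 96.1 CPM in DR, 0.66 ± 0.17, adjusted p = 0.042). The Ezr call held in 3 and the Aldh1a1 call in 1 of the 7 analyses without a library, and 40.1% of the Aldh1a1 body is covered by other annotated genes. The study chose these genes on samples of this series, so they are no independent list. The other 3 gave 0.42 for Fam107a (adjusted p = 0.14), 0.25 for Gjb6 (0.35) and 0.18 for Etnppl (0.83). None of the 20 astrocyte identity genes was called by edgeR (5 at an unadjusted p below 0.05; 1 called by DESeq2), the list's median being 0.07 and its range -0.30 to 0.34, with Aldoc at 0.03. The 8 immature matrix genes (median 0.09; Tnc -0.02, Vcan -0.00, Mmp14 -0.36) and 4 mature matrix genes (median 0.16; Scrg1 0.34) named by the study held 0 calls by edgeR or DESeq2 (1 and 0 genes at an unadjusted p below 0.05).

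Lrrc8c, a subunit of volume-regulated anion channels, measured 239.7, 285 and 276 CPM in NR and 126, 196, 86.0 and 184 CPM in DR (0.85 ± 0.19, adjusted p = 0.020). Cdh19, a cadherin, measured 214, 189 and 166 CPM in NR and 93.2, 122, 90 and 128 CPM in DR (0.81 ± 0.19, adjusted p = 0.031). Both were higher in all NR libraries and were named after their values were seen. The GR comparison, which shares these libraries, gave log2 fold changes of GR-KO over GR-Con of -2.30 (NR) and -1.73 (DR) for Lrrc8c, and of -2.61 (NR) and -2.14 (DR) for Cdh19.

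Lower genes included effectors of BMP, Notch and Sonic hedgehog signalling. Of 25 genes listed for Notch, Wnt, BMP and Sonic hedgehog, 6 were called lower in NR and 0 higher, with a median of -0.14. DESeq2 called 7 lower and 2 higher, and without NR replicate 1 and DR replicate 2 edgeR called 2 lower and 0 higher. The ID proteins hold back differentiation by sequestering basic helix-loop-helix factors and are induced by BMPs. Id3 (chr4:136143822-136145392) measured 22.3, 22.7 and 26.8 CPM in NR and 35.3, 35.9, 42.7 and 36.1 CPM in DR (-0.64 ± 0.10, adjusted p = 0.00061). Id2 measured 54.2, 58.5 and 66.0 CPM in NR and 83.8, 78.0, 87.9 and 82.4 CPM in DR (-0.48 ± 0.11, adjusted p = 0.026). Id1 measured 3.83, 2.89 and 6.21 CPM in NR and 6.21, 7.87, 6.41 and 9.59 CPM in DR (-0.78 ± 0.19, adjusted p = 0.031). The NR libraries were all below the DR libraries for Id1, Id2 and Id3. For Id1 they were so only just, with NR replicate 3 at 6.206 and DR replicate 1, the lowest DR library, at 6.210 CPM. Without any single library the Id3 call held, while Id2 and Id1 each held in 3 of 7.

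Hes5, the Notch effector that keeps radial glia undifferentiated (chr4:154960626-154962372), measured 16.9, 13.3 and 16.7 CPM in NR and 33.2, 33.5, 34.6 and 19.3 CPM in DR (-0.94 ± 0.16, adjusted p = 0.0030). DR replicate 4 stood close to the NR libraries, and the call held without any single library, with log2 fold changes from -1.11 to -0.84. The stretch of the Hes5 promoter at chr4:154960803-154960882 (plus strand) is shown because it holds the letters GTGGGAA, bound by the Notch cofactor RBPJ and marked in capitals, which were found in the promoters of 2 of 81 higher genes, 3 of 78 lower genes, 5.49% of the tested genes and 5.42% of all promoters. This stretch lies inside the Hes5 interval given above, as the promoter sequence uses a later transcript start.
Hes5: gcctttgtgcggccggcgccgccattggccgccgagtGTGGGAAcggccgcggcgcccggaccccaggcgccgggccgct

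Other annotated genes, chiefly the antisense transcript Gm20421, cover 52% of Hes5, and without a stated strand setting the reads of these genes cannot be told apart. Jag1, a Notch ligand, measured 8.32, 9.64 and 8.64 CPM in NR and 21.9, 13.7, 19.3 and 11.8 CPM in DR (-0.91 ± 0.24, adjusted p = 0.0496). It kept its call in 2 of 7 analyses without a library and lost it with the marker covariates (adjusted p = 0.098). Gli1, the Sonic hedgehog effector, measured 10.3, 8.12 and 11.5 CPM in NR and 20.1, 19.4, 25.7 and 18.8 CPM in DR (-1.07 ± 0.24, adjusted p = 0.021), and 79.1% of its body overlaps other genes, mainly Arhgap9. Outside the list, the Wnt receptor gene Fzd8 averaged 2.53 CPM in NR and 4.88 CPM in DR (-0.94 ± 0.21, adjusted p = 0.022). The 2 Notch antagonists of the Numb family went opposite ways, Numb at 0.29 and Numbl at -0.27 (adjusted p = 0.0497 and 0.044). Hey2 (0.44, adjusted p = 0.061), Dll1 (-0.76, 0.067), Lef1 (0.49, 0.086) and Hey1 (-0.38, 0.096) were the nearest members below the threshold. Of 15 immature glia genes, 3 were called lower and 0 higher, and these were again Id3, Hes5 and Id1.

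**Figure D4:**
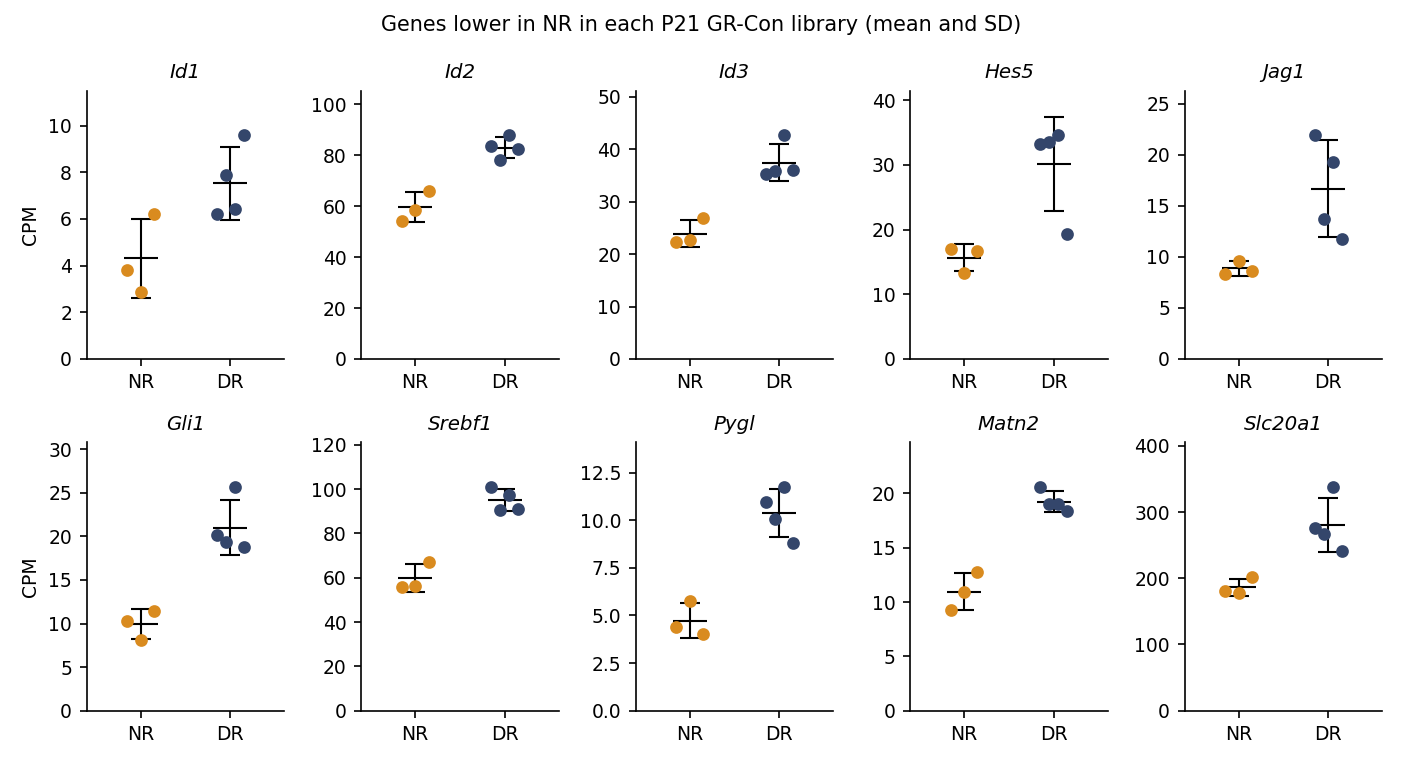
CPM of 10 genes called lower in NR in each P21 GR-Con library (orange NR, left; blue DR), with the group mean and SD. Id3, Srebf1, Pygl and Matn2 separate the groups completely, and for Hes5 DR replicate 4 (19.3 CPM) lies near the NR libraries (13.3 to 16.9 CPM).

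Other lower genes had roles in the matrix, in hormone reception and in transport. Matn2, a matrilin of the extracellular matrix, measured 9.27, 10.9 and 12.7 CPM in NR and 20.6, 19.0, 19.0 and 18.4 CPM in DR (-0.80 ± 0.13, adjusted p = 0.00082). Rxfp1, the relaxin receptor, measured 4.91, 6.21 and 6.54 CPM in NR and 11.1, 11.1, 10.5 and 10.9 CPM in DR (-0.88 ± 0.16, adjusted p = 0.0050). Both separated the groups with little spread in DR. Chadl, a chondroadherin-like matrix protein, had a log2 fold change of -0.61 ± 0.12 (adjusted p = 0.0063), the phosphate transporter Slc20a1 -0.59 ± 0.14 (0.026), the hyaluronan synthase Has1 -0.68 ± 0.17 (0.032), the CREB/ATF family regulator Crebzf -0.42 ± 0.08 (0.0063), the histone deacetylase Hdac5 -0.35 ± 0.07 (0.013) and the RNA-destabilising protein Zfp36l2 -0.54 ± 0.12 (0.020). Other annotated genes cover 44.1% of Slc20a1, 42.5% of Has1 and 54.5% of Zfp36l2.

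The lower gene of smallest adjusted p was the ubiquitin pseudogene Ubb-ps (chr14:46084027-46084957), with 3.47, 3.16 and 2.43 CPM in NR and 14, 13.2, 16 and 14.9 CPM in DR (-2.28 ± 0.27, adjusted p = 1.6e-05). As a copy of Ubb it may share reads with its parent, and its value is uncertain for that reason. A further 3 RNAs that are not polyadenylated, named after their values were seen and not as a list, were also called lower. Rmrp, the RNA of RNase MRP, averaged 37.9 CPM in NR and 107 CPM in DR (-1.50 ± 0.32, adjusted p = 0.016; 58.2% of it overlaps Ccdc107), Rnu3a, a U3 small nucleolar RNA, 3.19 and 7.24 CPM (-1.16 ± 0.23, adjusted p = 0.0087), and Scarna2, a Cajal body RNA, 4.27 and 9.36 CPM (-1.13 ± 0.21, adjusted p = 0.0063). These values go with the shallower NR libraries. With the 7 libraries thinned to one depth Ubb-ps, Rmrp, Rnu3a and Scarna2 were still called, at -2.30, -1.49, -1.28 and -1.07. Thinning removes counts at random and evens out depth only, so a difference in preparation between the NR and DR libraries was not tested. At the low end, 5 called genes (C8g, Sult2a2, Scn10a, Il5 and Atp4b) had no count in any NR library; against a floor of 3 counts over the NR group (0.0509 CPM) they were at least 4.61-fold to 7.27-fold lower in NR. Ttr, a choroid plexus marker named after its values were seen, was called at -5.92 (adjusted p = 0.040) on 1 library, DR replicate 4, with 63.2 CPM against 0.358 to 2.86 CPM in the other DR and 0 to 0.872 CPM in the NR libraries, and without that library its log2 fold change was -2.30 and no longer called. The Ttr call was also lost without any one of the NR libraries.

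The same rearing contrast in libraries that share no sample with it gave a way to set the values side by side. In P21 GR-KO astrocytes 24 genes were called (0.14%), 14 higher (0.0818%) and 10 lower (0.0585%), and 102 of the 103 higher and 106 of the 111 lower GR-Con genes had the same sign there, where 49.8% and 50.2% of all genes tested had that sign. The median log2 fold change of the higher genes was 0.27 in GR-KO against 0.48 in GR-Con, and that of the lower genes -0.31 against -0.69, as values of genes chosen for being large in GR-Con. The 16 genes called in both included Egr2 (2.47 in GR-KO), Pde10a (1.86), Pde3a (1.28), Camk1d (0.78), Lars2 (0.77), Nsdhl (0.77), Id3 (-0.50), Id2 (-0.56) and Ubb-ps (-2.50). Bdnf (0.17, adjusted p = 0.71), Inhba (0.31, 0.70), Maob (0.08, 0.86), Jag1 (-0.15, 0.86) and Zbtb16 (0.28, 0.76) had small values in GR-KO. A test of the difference between the genotypes called 0 genes in edgeR (2 called in DESeq2), so none of these differences between GR-Con and GR-KO is shown. In edgeR 765 of the 17106 genes had an unadjusted p below 0.05, no more than chance alone gives at that threshold. For Inhba the difference was 1.05 at an unadjusted p of 0.0051 and an adjusted p of 0.98. Both genotypes had the shallower NR libraries at this age.

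At P28, where the NR libraries held 32241288 to 39113714 and the DR libraries 41302298 to 48032718 counts, 72 genes were called in GR-Con (0.421%), 66 higher (0.386%) and 6 lower (0.0351%). Of the P21 genes, 72 of the 103 higher and 70 of the 111 lower had the same sign (69.9% and 63.1%), with medians of 0.09 and -0.04. In all, 12 were called in both: Bdnf, Fosb, Egr2, Nr4a1, Nptx2, Igfbp2, Dio2, Pcsk1, Ptgs2 and Tiparp higher, and Otof and Mdga1 lower. Of the 22 immediate early genes, 5 were called at P21 and 12 at P28, with medians of 0.70 and 1.46. The test of the difference between ages called 0 of them (8 at an unadjusted p below 0.05), the smallest p belonging to Maff (-2.22, adjusted p = 0.14). Fosl2 had 1.28 at P21 and 2.43 at P28, and Bdnf 0.76 and 1.26.

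At P14 no gene was called in edgeR, and the 471 at an unadjusted p below 0.05 were no more than chance alone gives at that threshold. Of the P21 genes, 34 of the 103 higher and 57 of the 111 lower had the same sign. Egr2 averaged 0.962 ± 0.22 CPM in NR and 1.22 ± 0.098 CPM in DR at P14 (SD, n = 3 each), 11.6 ± 4.2 and 2.32 ± 0.67 CPM at P21 (n = 3 and 4), and 15.4 ± 8.8 and 3.25 ± 0.90 CPM at P28 (n = 3 and 4). The Egr2 DR mean was also higher at P21 and P28 than at P14. For P21 over P14 in DR the edgeR log2 fold change was 0.93 ± 0.51 (adjusted p = 0.24). Bdnf averaged 10.6 CPM in both NR and DR at P14, 13.3 and 7.89 CPM at P21, and 17.5 and 7.30 CPM at P28. Dio2 averaged 426 and 444 CPM, 537 and 329 CPM, and 532 and 324 CPM. The DR means of both were lower at P21 and P28 than at P14. The immediate early list had a median of -0.00 at P14, and the test of the difference between P21 and P14 called none of its members (7 at an unadjusted p below 0.05).

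Other genes differed between ages by the test of the difference. Against P28, 11 genes were called (0.0643%), 2 with a higher (0.0117%) and 9 with a lower value at P21 (0.0526%), among them Id3 (-0.71), Hes5 (-1.09) and the Notch regulator Nrarp (-0.88), Zfp36l2 (-1.01), Scarna2 (-1.59), Ubb-ps (-2.65) and Camk1d (0.90). Id3 averaged 23.9 ± 2.5 CPM in NR and 37.5 ± 3.5 CPM in DR at P21, and 33.5 ± 2.6 and 32.0 ± 1.1 CPM at P28. Hes5 averaged 15.7 ± 2.0 and 30.2 ± 7.2 CPM at P21, and 32.7 ± 3.9 and 29.6 ± 5.9 CPM at P28. In both genes the P21 NR mean was the lowest of these 4 means. Camk1d averaged 422 and 235 CPM at P21 and 217 and 225 CPM at P28, and Lars2 150.4 and 89.3 CPM at P21 and 63.3 and 60.5 CPM at P28. Against P14, 7 genes were called (0.0409%), 2 higher (0.0117%) and 5 lower (0.0292%), including Rxfp1 (-1.44), Matn2 (-0.93), Tph2 (1.59) and Ubb-ps (-2.36). The P21 NR groups of both genotypes were also the shallowest of the study, and depth cannot be told apart from light at this age.

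**Figure D5:**
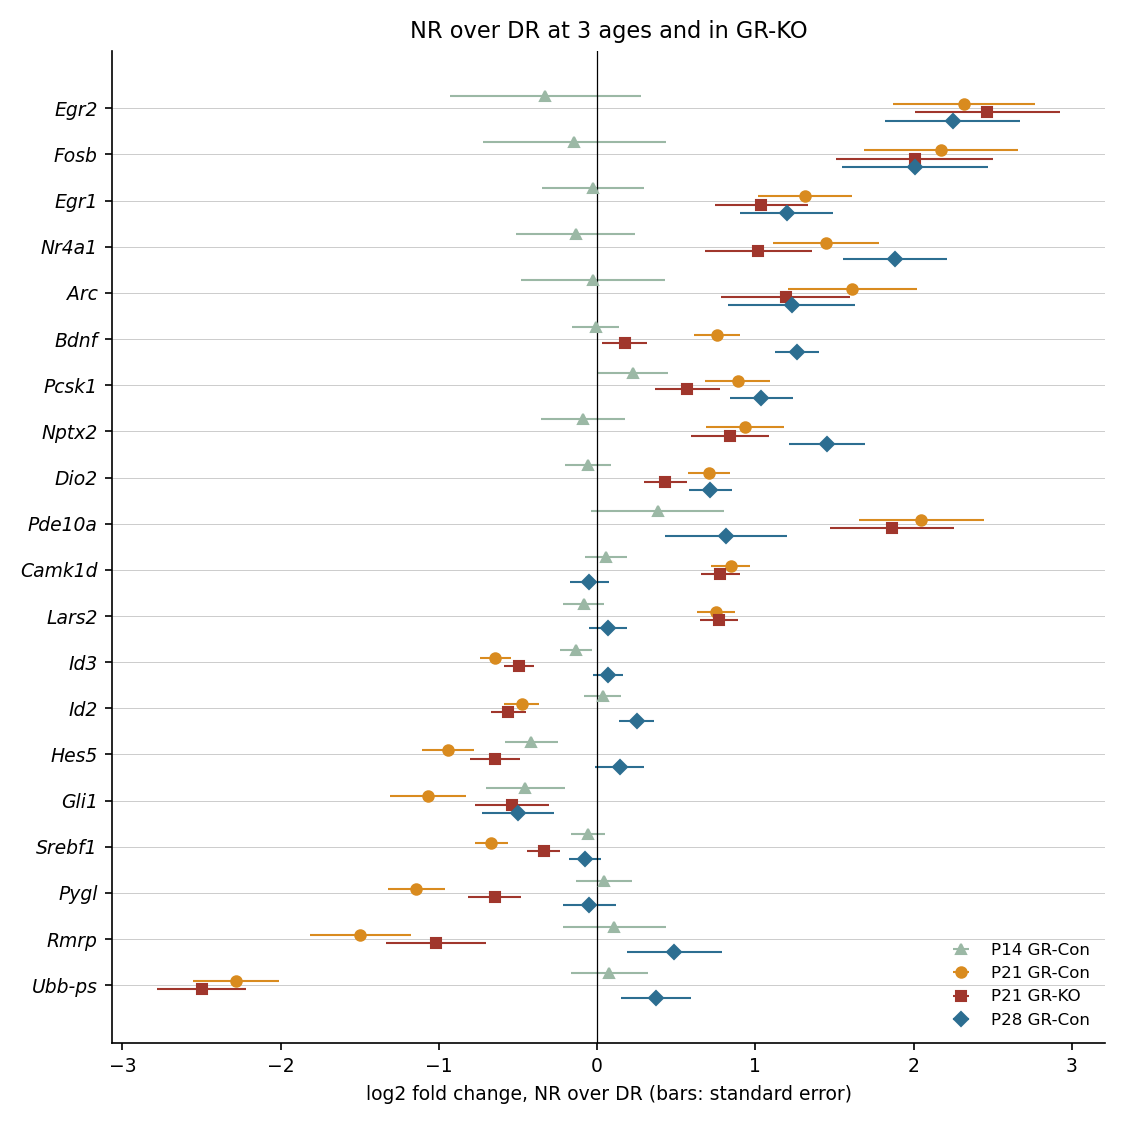
Log2 fold change of NR over DR with its SE for named genes at P14, P21 and P28 in GR-Con and at P21 in GR-KO. Egr2 stands at -0.33, 2.32, 2.25 and 2.47 and Bdnf at -0.01, 0.76, 1.26 and 0.17, while Camk1d (0.06, 0.84, -0.05 and 0.78) and Ubb-ps (0.08, -2.28, 0.37 and -2.50) have their largest values in the P21 contrasts.

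Many of the lists held no call in edgeR. The lists without one, with their medians, were 17 circadian genes (0.04), 18 synapse-regulating genes (0.10; Chrdl1, which matures glutamatergic synapses, 0.44, adjusted p = 0.051), 24 transmitter receptors of astrocytes (0.07; Gabbr2 0.41), 19 proteoglycan and perineuronal net genes (0.04; Hapln1 0.20), 7 gap junction genes (-0.13; Gja4 -1.57), 24 fatty acid and lipid genes (0.06; Acsbg1 0.34), 20 genes of FGF, EGF and MAP kinase feedback (0.18; Etv5 0.28), 17 proliferation genes (-0.07; Ccnb2 -0.67) and 16 stress and heat shock genes (0.12; Hsph1 0.40). Among 16 potassium, chloride and water channels the nearest to the threshold was Ano1, a calcium-activated chloride channel (-0.94, adjusted p = 0.052). The 9 reactive astrocyte genes had a median of -0.01 with C4b at -0.37, and the 14 interferon genes one of -0.41 with Rsad2 at -1.05 (adjusted p = 0.22). The interferon median was 0.58 both in P21 GR-KO and at P28 in GR-Con. The edgeR tests of the difference called 0 of the 14 genes against either, with 9 (GR-KO) and 8 (P28) at an unadjusted p below 0.05. Neuronal, oligodendrocyte, precursor, microglial and vascular markers held 0 calls, with medians of 0.03, -0.22, -0.08, -0.16 and -0.11. In the P21 GR-Con contrast of NR and DR, these lists held 0 to 6 genes each at an unadjusted p below 0.05. There were 6 in the fatty acid and the FGF lists, where 2720 of all 17106 genes tested passed. DESeq2 called 1 synapse-regulating gene and 1 fatty acid gene higher, 1 channel gene higher and 1 lower, and none in the other lists of this paragraph.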

How the data were processed

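RNA of sorted nuclei was sequenced in 40 libraries. The deposited values are counts per gene: per the labels and the study's methods, the authors aligned paired reads to mm10 with STAR and counted whole gene bodies, exons and introns, with featureCounts (Subread) against refGene of UCSC; their own tests used DESeq2. Whether strand was used in counting is not stated there. Nothing says how far the pools of a group share animals or preparation days beyond being separate pools, and p-values measure the spread between them.

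All 40 libraries entered 1 edgeR 4.0.16 model (R 4.3.3) with 12 group means, filterByExpr, TMM scaling (0.882 to 1.07) and the quasi-likelihood test. Benjamini-Hochberg adjustment covered all 17106 genes tested, and genes were called below 0.05. SE is the log2 fold change divided by the square root of F. Overlaps and lengths come from RefSeq and GENCODE vM21 gene positions; 25148 of 25239 symbols matched. The biological coefficient of variation was 0.132. Gene bodies include introns, so values reflect nuclear, largely unspliced RNA, and long genes gather more counts.

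Members and the 35 gene lists were chosen with earlier results of these data known. Named genes were Nr3c1, up to 15 called genes per direction by smallest adjusted p with a mean of at least 5 CPM in a group, up to 4 called members per list (otherwise the member of smallest p), and genes the study names; others are said to have been named after their values were seen, or are given to complete a count (Arc, Jag1, Dapk2, Ttr, Pde3a, Pde7b, Fzd8, Mars2, Pars2, Slc2a4, Numb, Numbl, Has1, Rmrp, Rnu3a, Zfp36l2, Hdac5 and further values of list members were also chosen so). Single values were compared by an exact permutation test (35 arrangements). Alternatives were DESeq2 size factors, DESeq2 1.42.0, no filter, the 7 libraries alone, a replicate block, 1 library omitted at a time, removal of the 20 most abundant genes, equal depth, and 4 chosen after seeing the data. Procedures were tested on simulated data. Some genes are not reported here.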

Additional observations from a re-analysis of the deposited data

Results flagged for a closer look

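Among 103 sets of 4 DR libraries looked at, 7 held a library far from the other 3, where chance gives about 5. Id3 was 42.7 CPM in DR replicate 3 against 35.3 to 36.1 CPM in the other DR libraries, with 22.3 to 26.8 CPM in NR. DR replicate 4 had low Hes5 (19.3 CPM, others 33.2 to 34.6 CPM), low Rsad2, an interferon-induced gene (1.43 CPM, others 3.30 to 3.66 CPM), and high Ttr (63.2 CPM, others 0.358 to 2.86 CPM). DR replicate 2 had the lowest neuronal marker sum (4759 CPM, others 5056 to 5096 CPM) and the most genes detected, 19795 against 18380 to 18535, and 19121 against 17748 to 17870 at equal depth.

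The NR to DR difference in GR-Con was called as different between P21 and P28 for 11 genes, 10 of which are given here as P21 minus P28 on the log2 scale. It was negative for Ubb-ps (-2.65), the RNA-destabilising gene Zfp36l2 (-1.01), Scarna2 (-1.59), Id3 (-0.71), Tob1 (-0.72), the Notch regulator Nrarp (-0.88), Hes5 (-1.09) and Zfp280b (-0.90). It was positive for the scavenger receptor gene Stab2 (1.40) and Camk1d (0.90).

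Between P21 and P14, 7 genes differed, again as P21 minus P14. The values were -1.44 for Rxfp1, -2.36 for Ubb-ps, 1.59 for Tph2, -0.76 for Ccdc74a, -0.93 for Matn2, -1.65 for Morn3 and 0.76 for Atpsckmt. Ubb-ps was called in both tests. Sequencing depth at P21 differed between NR and DR more than at the other ages, and its part in these differences was not tested.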

How the results depend on the processing

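The 214 calls became 483 with DESeq2 on 40 libraries, 909 (edgeR) and 1463 (DESeq2) on the 7 libraries alone, 740 with marker covariates, 620 with the gene length slope and 60 without NR replicate 1 and DR replicate 2; the last 3 were chosen after seeing the data. The share higher was 48.1%, against 59.3% and 63.9% with the 7 libraries alone and 61.7% without those 2, 40.8% with no filter, and 31.7% to 60.4% without 1 library. Leaving out 1 library gave 54 to 193 calls. The counts with DESeq2 size factors (249), no filter (152), the 20 most abundant genes left out (264), equal depth (211) and at least 5 CPM (221, chosen after seeing the data) were near the first. Replicate numbers did not pair the libraries (same-number correlations -0.24, 0.06 and 0.01); a replicate block gave 265 calls (Egr1 and Arc not among them), 57 for P21 against P28 and 12 for P21 against P14. DESeq2 gave 2, 115 and 52 calls for the tests of the difference against GR-KO, P28 and P14, and 21 came from P28 without the abundant genes. Of single genes near 0, Mt1 turned to 0.11 (marker covariates) and 0.048 (length slope), Aldoc to -0.024 (without both libraries), Tnc to 0.023 (equal depth) and Vcan to 0.0071 (DESeq2 size factors), 0.0064 (DESeq2), 0.0019 (7 libraries in DESeq2) and 0.0014 (abundant genes out). Without 1 library they ranged from -0.15 to 0.020 (Mt1), -0.012 to 0.097 (Aldoc), -0.048 to 0.010 (Tnc) and -0.038 to 0.045 (Vcan). The precursor marker sum difference ranged from -0.370 to 12.7 CPM. The causes were not tested. Depth limits low genes, and 3 NR pools of at most 24308989 counts set the precision.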
